A study of Homo sapiens with 12 samples.

Results

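Zinc-finger gene clusters of chromosome 19 were taken as 2 blocks in the hg19 build: a proximal block, chr19:19800000-24500000, and a distal block, chr19:52000000-59128983, which runs to the end of the chromosome. Accessible regions were made by merging the ATAC-seq peaks of 12 libraries where they overlapped by at least 1 bp. The blocks held 623 of the 6537 regions on chromosome 19 and of the 187088 regions in all, with 105 in the proximal and 518 in the distal block. The blocks were chosen by position among the peaks of these lists, with earlier results of these data known, so the number of regions in them is a description.

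Most zinc-finger genes of such clusters encode C2H2 proteins with a KRAB domain, which bind DNA, many of them at transposable elements. They recruit the co-repressor TRIM28 (KAP1) and with it the histone methyltransferase SETDB1. The blocks were set by position and may hold other genes as well, so a trait of a block need not be one of zinc-finger genes. The clusters grew by tandem duplication. The bodies and 3′ ends of many of these genes carry H3K9me3, a mark of heterochromatin, while their promoters can stay open. In the RefSeq table of GRCh38.p14, 609 protein-coding genes had a symbol starting with ZNF, ZSCAN, ZFP, ZIM, ZIK, ZBTB or MZF, and 269 of them (44.2%) were on chromosome 19. The longest run of such neighbours there counted 27 genes, from ZNF737 to ZNF681. The next counted 24 (ZNF627 to ZNF791), 24 (ZNF565 to ZNF793), 23 (ZNF772 to ZNF256), 20 (ZNF283 to ZNF180) and 11 (ZNF699 to ZNF846). Runs were not placed against the blocks, so the rest of chromosome 19 may hold zinc-finger clusters too. That table is of another build than the peaks, so no gene was assigned to a region.

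The cells were G401, an established line from a rhabdoid tumour, with the genotype SMARCB1(-/-). SMARCB1 is a core subunit of the canonical BAF and PBAF forms of the SWI/SNF chromatin remodeller, and BRD9 is a subunit of the non-canonical form, which lacks SMARCB1. All cells received doxycycline for 24 h, which induced either GFP or SMARCB1, together with either DMSO or dBRD9-A, a degrader of BRD9. The 4 groups had 3 libraries each: GFP with DMSO, SMARCB1 with DMSO, GFP with dBRD9-A and SMARCB1 with dBRD9-A. The labels do not say whether replicates were separate cultures, so spreads and p-values refer to these libraries and may be technical.

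Regions were counted as present in a library when its list had a peak there. The lists held between 33428 and 50089 peaks in the GFP libraries and between 71169 and 96572 in the SMARCB1 libraries. Read totals were not used here, and the background pileup (the lowest fragment density that the peak caller used in a list) served as a measure of depth. It was 0.0517 ± 0.0171 (SD, n = 6) with GFP and 0.0827 ± 0.0217 (SD, n = 6) with SMARCB1, with overlapping ranges of 0.0383 to 0.0784 and 0.0487 to 0.111. The mean pileup at regions shared by all libraries (a geometric mean) was 16.7 ± 4.71 with GFP and 17.6 ± 2.76 with SMARCB1 (SD, n = 6 each). Background and shared pileup thus moved unequally with induction. As an alternative the libraries were thinned to the same background pileup, which does not equalise the pileup at shared regions, and counts that then changed are given beside them.

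Accessible regions were sparse in the proximal block and less sparse in the distal one. The proximal block had 22.3 regions per Mb over 4.70 Mb, the distal block 72.7 per Mb over 7.13 Mb, and the rest of chromosome 19 had 125 per Mb. For regions present in all 12 lists the order was the same, and the distal block came closer to the rest of the chromosome: 4.47 per Mb in the proximal block, 21.9 in the distal block and 25.5 elsewhere. The median distance from one such region to the next was 89.7 kb in the proximal block (interquartile range 50.8 to 157), 21.0 kb in the distal block (8.93 to 43.0) and 18.2 kb in the rest of the chromosome (7.51 to 40.8). Among fixed stretches of 0.5 Mb the densest lay in the distal block from 55.5 to 56.0 Mb and held 95 regions, 27 of them in all 12 lists.

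**Figure D1:**
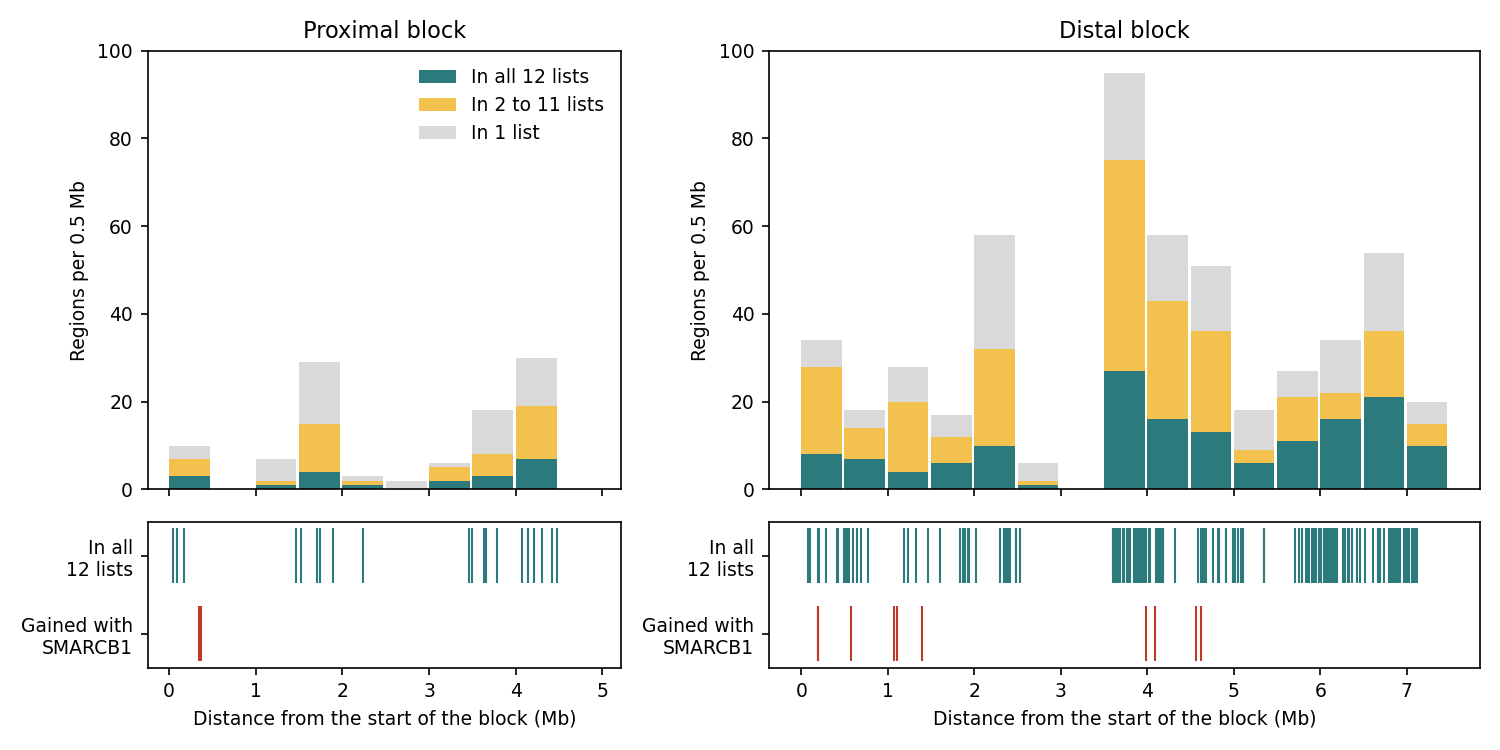
Accessible regions along the proximal and the distal block. The upper panels give the number of regions per 0.5 Mb, coloured by how many of the 12 peak lists held them, against the distance from the start of the block in Mb; the lower panels mark each region found in all 12 lists and each region called gained with SMARCB1. The proximal block has the fewer regions, both blocks have stretches with none, and the 12 gained regions lie in the first part of the proximal block and in the first and middle parts of the distal block.

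Long stretches of both blocks held no region in any library. The longest, chr19:54527398-55598386, covered 1071 kb of the distal block, and the regions on both sides of it were in all 12 lists. In the proximal block, chr19:20163253-21023379 (860 kb) and chr19:22063789-22681786 (618 kb) held none. The peak numbers ran on without a skip across each of the 3 stretches in 12 of 12 lists. They thus gave no sign that the authors' filter had removed a numbered peak there. Anything removed before the peaks were numbered would leave no skip. Absence of peaks is not evidence of closed chromatin, and the reason for it was not tested.

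The edges of the blocks cut through no dense group of regions. At the start of the proximal block the nearest region inside was chr19:19843855-19844098, in 12 lists, and the nearest outside was chr19:19798000-19798085, in 1 list. At its end they were chr19:24269780-24270045, in 12 lists, and chr19:28265930-28266015, in 2 lists. At the start of the distal block they were chr19:52014788-52014873 and chr19:51988653-51988735, each in 1 list. The last region of the distal block, chr19:59118854-59118974, was in 12 lists, and no region lay beyond it.

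Regions found in every library were a larger share of the blocks than of their surroundings. Of the 623 regions in the blocks, 177 (28.4%) were in all 12 lists, against 20.4% of the 5914 regions on the rest of chromosome 19 and 9.27% of the regions on other chromosomes. Regions in a single list made up 32.1% of the blocks, 33.0% of the rest of chromosome 19 and 41.3% of the other chromosomes. The 2 blocks differed from each other: 44.8% of the proximal regions were in 1 list and 20% in all 12, while 29.5% of the distal regions were in 1 list and 30.1% in all 12. Only in the distal block was the share in all 12 above that of the rest of chromosome 19. These shares depend on how many libraries were merged and how deep they were, and are given without a test.

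**Figure D2:**
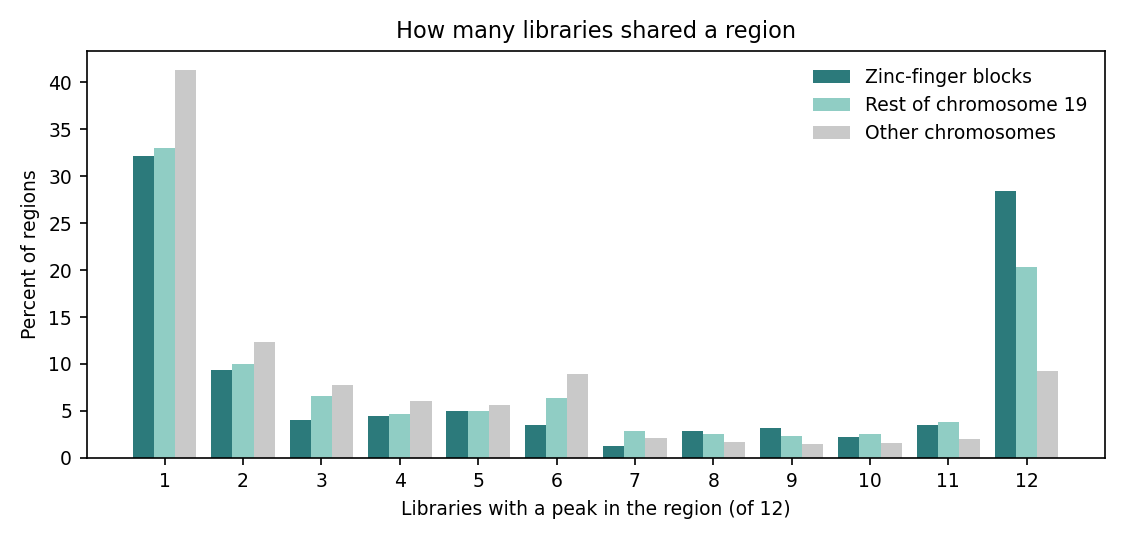
Percent of regions (vertical axis) by the number of the 12 libraries that had a peak there (horizontal axis), for the zinc-finger blocks, the rest of chromosome 19 and the other chromosomes. The blocks have the highest bar at 12 libraries, 28.4% against 20.4% and 9.27%, and the bars at 1 library are 32.1%, 33.0% and 41.3%.

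Width followed the number of libraries. Block regions in a single list had a median width of 86 bp, those in all 12 lists 279 bp, and all of them together 156 bp. On the rest of chromosome 19 the same medians were 86, 297.5 and 147 bp. Summits were low in single-list regions, with a median pileup of 3 fragments (range 2 to 15) against 20 fragments (range 2 to 83) at regions in all 12 lists. Pileup is the number of nucleosome-free fragments over the summit, recovered as a whole number from the authors' fold and p, and it was not scaled for depth.

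Strength is given as a percentile of the authors' fold among all peaks of a list, averaged over libraries. In the distal block the highest mean percentile, 99.4, belonged to chr19:59055228-59055829, a region of 602 bp close to the end of the chromosome. Its summit pileup was 80, 52 and 57 fragments in GFP with DMSO, 57, 55 and 69 in SMARCB1 with DMSO, 62, 52 and 77 in GFP with dBRD9-A, and 67, 61 and 59 in SMARCB1 with dBRD9-A. These 4 ranges overlapped, and no group stood apart. The next in the distal block were chr19:58789954-58790375 (mean percentile 99.1) and chr19:57831619-57831913 (98.8). In the proximal block they were chr19:21264795-21265081 (98.5), chr19:19887139-19887631 (98.2) and chr19:23869908-23870185 (96.6). The last of these varied most: among the regions shared by all lists its percentile was 64.8 in the first and 86.7 in the second GFP library with dBRD9-A.

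SMARCB1 libraries had peaks in more block regions than GFP libraries, though by a smaller factor than over the genome. With DMSO, 294, 248 and 260 block regions had a peak in the GFP libraries and 315, 346 and 350 in the SMARCB1 libraries. With dBRD9-A the counts were 245, 260 and 325 with GFP and 356, 308 and 369 with SMARCB1. In DMSO the groups did not overlap, while in dBRD9-A the third GFP library, at 325, lay above the second SMARCB1 library, at 308. Over both treatments the mean was 272 ± 31.3 (SD, n = 6) with GFP and 341 ± 24.0 (SD, n = 6) with SMARCB1, a difference of 68.7 regions and a ratio of 1.25. The same ratio was 1.35 on the rest of chromosome 19 and 2.19 over all regions. The third GFP library with dBRD9-A also had the highest background pileup of the GFP libraries, 0.0784.

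In the full lists the ratio of counts was higher in the proximal block. There the counts were 33, 29 and 24 in GFP with DMSO, 38, 57 and 46 in SMARCB1 with DMSO, 24, 27 and 37 in GFP with dBRD9-A, and 45, 37 and 51 in SMARCB1 with dBRD9-A. The 6 GFP and 6 SMARCB1 libraries met at 37 regions, with means of 29.0 ± 5.18 and 45.7 ± 7.63 (SD, n = 6 each) and a ratio of 1.57. In the distal block the means were 243 ± 26.7 and 295 ± 19 (SD, n = 6 each), a ratio of 1.21. By the exact test described below, the shares gained were alike: 2 of 37 tested proximal regions (5.41%) and 10 of 187 distal ones (5.35%). Over all tested regions the share was 15.4%. Counts per block are not given at the same background pileup or with lists of equal length. No test was made between the blocks, which were chosen with earlier results known.

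The blocks made up a smaller part of each SMARCB1 library. Of the chromosome 19 regions with a peak, 11% ± 0.270 (SD, n = 6) lay in the blocks in GFP libraries, with a range of 10.7 to 11.5%, and 10.2% ± 0.141 (SD, n = 6) in SMARCB1 libraries, with a range of 10.1 to 10.4%. These ranges did not overlap, and the difference was −0.751 percentage points. Against all regions with a peak the shares were 0.719% and 0.409%. Both the count and the share turned with list length: when each list was shortened to its 33428 strongest peaks, SMARCB1 libraries had 38.7 fewer block regions than GFP libraries (212 ± 6.50 against 250 ± 6.91, SD, n = 6 each), and the share was 0.393 points higher. With libraries thinned to the same background pileup, SMARCB1 libraries had 22.2 more.

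**Figure D3:**
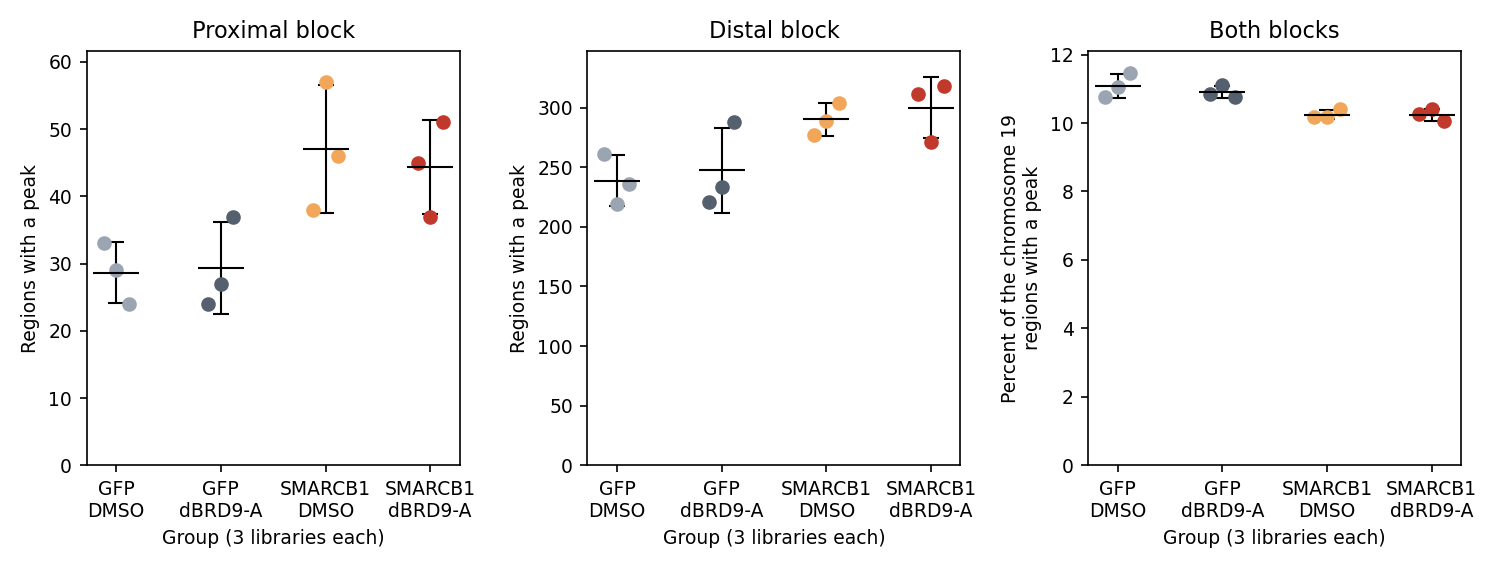
Number of regions with a peak in the proximal block (left) and the distal block (centre), and percent of the chromosome 19 regions with a peak that lie in either block (right), for each library of the 4 groups. Points are libraries, horizontal lines the group means and bars 1 SD (n = 3); the counts are higher in SMARCB1 libraries while the percent is lower, 10.1 to 10.4% against 10.7 to 11.5%.

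Peaks in the blocks stood above the middle of their lists, at a median within-list percentile of 66.0 with GFP and 71.2 with SMARCB1, and those on the rest of chromosome 19 at 59.0 and 64.5.

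In total 12 block regions were gained with SMARCB1 and 0 were lost. The test was a two-sided exact permutation test of presence per region, stratified by treatment, with Benjamini-Hochberg adjustment over the 88398 regions of the genome with a peak in 2 to 10 libraries. Among these were 224 block regions, so 5.36% of them were gained. The same call held for 15.4% of all tested regions and for 9.44% (239 of 2533) on the rest of chromosome 19. Losses were 0.131% of all tested regions, and 7 on the rest of chromosome 19. Every gained block region had a peak in 6 of 6 SMARCB1 libraries and in 0 of 6 GFP libraries, with the smallest p this design allows, 0.005 by the exact permutation test, and a Benjamini-Hochberg adjusted p of 0.0321 in the same test. At an unadjusted p under 0.05 the exact test gave 31 gained block regions (13.8%) and 1 lost, against 25.9% and 0.482% of all tested regions. These unadjusted counts were 17 gained and 4 lost of 188 tested block regions at the same background pileup. With lists of equal length they were 11 gained and 15 lost of 148.

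More block regions leaned to SMARCB1 than to GFP. Of the 224 tested, 140 (62.5%) had a peak in more SMARCB1 than GFP libraries, 55 (24.6%) in fewer and 29 in as many. On the rest of chromosome 19, 65.3% were in more and 23.9% in fewer, and over all tested regions 80.6% and 12.3%. The median difference in the fraction of libraries with a peak was 0.333 in the blocks, 0.333 on the rest of chromosome 19 and 0.5 over all tested regions. This lean is given for the full lists only, and the unadjusted counts above moved with depth and list length.

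The call of gained regions sits at a limit set by ties. All regions with the 6-against-0 pattern share one p, and whether they pass depends on how many regions of the genome have it. At the same background pileup 10 block regions had that smallest p with more SMARCB1 libraries, and 1 had it with fewer. The lowest Benjamini-Hochberg adjusted p of the exact test rose to 0.0501, so 0 were called. When a peak had to cover at least 50% of the region, 16 had the smallest p and the lowest adjusted p of the exact test was 0.0577, again with 0 called. With lists of equal length 6 regions were gained and 5 lost. Under the replicate block, where labels are exchanged only between libraries of one number, 12 block regions had the smallest p the block allows, 0.03125 by exact permutation, the lowest Benjamini-Hochberg adjusted p was 0.201, and 0 were called.

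The gained regions came in 3 parts of the blocks. Both gained regions of the proximal block lay near its start, 12.3 kb apart, and none lay farther into the block. In the distal block 6 lay between 52.0 and 53.5 Mb, where 36 regions were tested, and 4 between 53.5 and 57.0 Mb, where 114 were tested. From 57.0 Mb to the end of the chromosome 0 of 37 tested regions were gained, 1 had an unadjusted exact permutation p under 0.05, and 41.8% of the 153 regions there were in all 12 lists. The limits of these stretches were set after the positions were seen.

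The strongest gained region of the distal block was chr19:56621984-56622307, at a mean within-list percentile of 91.4 over the 6 SMARCB1 libraries. Its summit pileup was 36, 21 and 20 fragments in SMARCB1 with DMSO and 26, 22 and 23 in SMARCB1 with dBRD9-A, with no peak in any GFP library. The nearest region present in all 12 lists lay 5265 bp away. The strongest of the proximal block, chr19:20162797-20163252 (percentile 90.5), had 20, 16 and 21 fragments with DMSO and 29, 18 and 26 with dBRD9-A. It stood alone, 186007 bp from the nearest region in all 12 lists, and directly before the 860 kb stretch without regions. Block regions found in every library had a median percentile of 83.6 ± 4.95 (SD over 12 libraries) and a median pileup of 20 fragments. That percentile covers GFP and SMARCB1 libraries, while those of the gained regions cover the 6 SMARCB1 libraries only. The percentiles of gained regions and of regions found in every library were therefore not compared.

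Next in the distal block came chr19:55985061-55985253 (percentile 89.6), with 21, 25 and 25 fragments with DMSO and 36, 17 and 35 with dBRD9-A. The region chr19:56566134-56566383 (83.8) had 12, 16 and 20 and then 18, 7 and 25 fragments. These, the strongest one and the region chr19:56093082-56093510 (81.5), with 17, 16 and 21 and then 34, 14 and 18, lie in a stretch of less than 1 Mb. In each of these 3 the ranges of the 2 treatments overlapped. The second SMARCB1 library with dBRD9-A had the lowest pileup of its group at all 3, and its list was the shortest of the SMARCB1 libraries, with 71169 peaks.

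The fifth of the named distal regions was chr19:52194094-52194257 (67.6), with 36, 22 and 20 fragments with DMSO and 31, 19 and 16 with dBRD9-A. Another gained region, chr19:52193121-52193351 (55.2), named after its values were seen, lay 742 bp from it, with 15, 27 and 18 and then 26, 10 and 19 fragments. Each was within 2 kb of a region in all 12 lists, at 1477 and 504 bp. Percentile and pileup did not order the regions alike, as the fold is taken over the background of each peak. The second gained proximal region, chr19:20150263-20150455 (63.8), was weaker, with 6, 8 and 11 and then 10, 6 and 7 fragments.

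The 4 gained regions not yet described, all in the distal block and named after their values were seen, had low summits. The pileup ranged from 6 to 12 fragments at chr19:53400861-53401089, from 3 to 14 at chr19:53104372-53104538 and from 5 to 8 at chr19:53069902-53070175. At chr19:52573746-52574276 it ranged from 2 to 6, the lowest of the 12, at a mean percentile of 24.8. A summit of 2 or 3 fragments can be missed in a shallower library, so its absence from the GFP lists was the least certain.

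**Figure D4:**
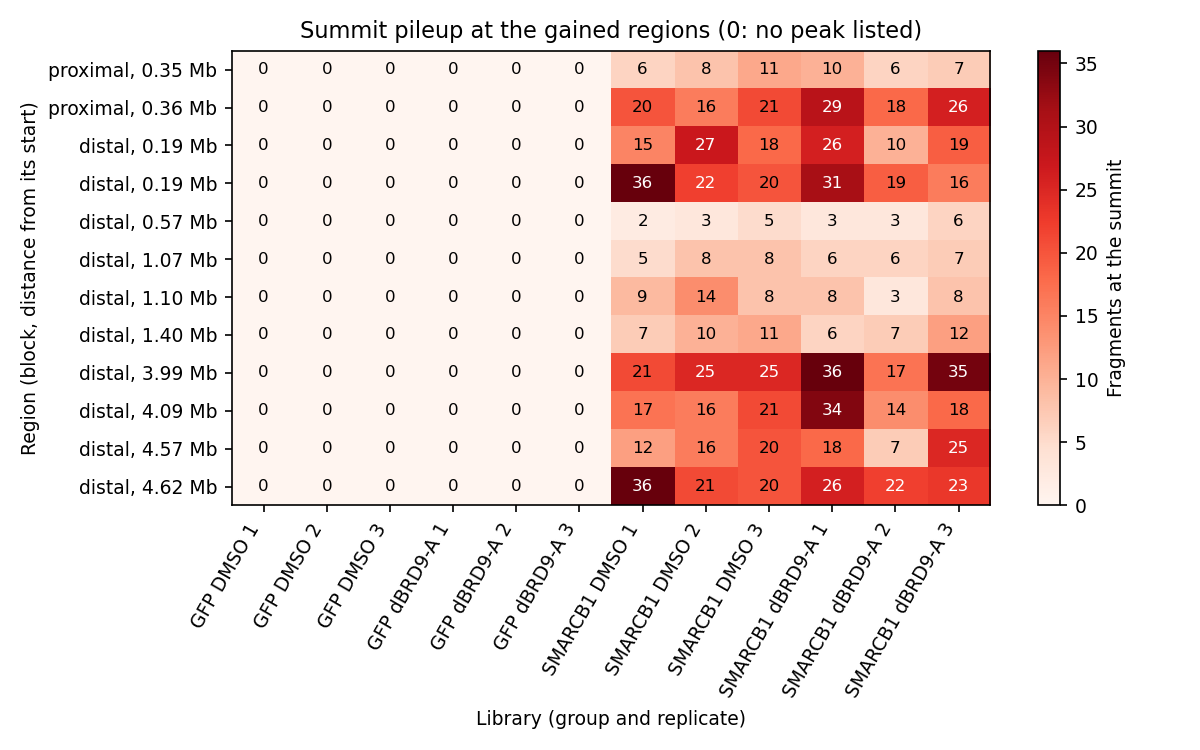
Summit pileup (fragments, colour and number) at the 12 regions called gained with SMARCB1 (rows, named by block and distance from its start) in each of the 12 libraries (columns). A 0 means that the list had no peak there, as in all 6 GFP libraries; values with SMARCB1 run from 2 to 36 and overlap between DMSO and dBRD9-A.

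The 12 gained regions had a median width of 240.5 bp, against 266 bp for the gained regions on the rest of chromosome 19 and 279 bp for block regions in all 12 lists. Their median within-list percentile was 72.2 ± 4.46 (SD over 6 SMARCB1 libraries) and their median pileup 16 fragments, against 66.6 ± 5.13 (SD, n = 6) and 10.5 fragments for the gained regions on the rest of chromosome 19. The median distance to the nearest region in all 12 lists was 23560.5 bp, with a range of 504 to 186007 bp. Of the 12, 2 lay within 2 kb and 7 beyond 10 kb, while on the rest of chromosome 19 the median was 14558 bp, with 18 of 239 within 2 kb and 148 beyond 10 kb. The presence rule had selected these regions, so their strength and distance are descriptions.

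Regions gained with SMARCB1 in DMSO were followed in the libraries with dBRD9-A. With presence in 3 of 3 libraries against 0 of 3, 32 of 498 block regions (6.43%) were gained in DMSO and 22 of 520 (4.23%) in dBRD9-A, and these 2 comparisons share no library. Over all regions 15% and 13.5% were gained, and on the rest of chromosome 19 8.44% and 8.16%. The 12 regions gained in both were 37.5% of the first list and 54.5% of the second. They are the same 12 that the exact test called, as both ask for a peak in every SMARCB1 and no GFP library, and so are no separate evidence. Of the 32 gained in DMSO, 25 had a peak in at least 2 SMARCB1 libraries with dBRD9-A, 0 had none there, and 4 had a peak in a GFP library with dBRD9-A. The share with a peak in at least 2 SMARCB1 libraries with dBRD9-A was 78.1% in the blocks, 92.9% on the rest of chromosome 19 and 91.4% on other chromosomes. Regions gained in both were 60.8% and 59.6% of the lists on the rest of chromosome 19, and 64.4% and 68.8% on other chromosomes.

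The counts within a treatment moved with the lists used and with 1 library. In DMSO 16 block regions were gained at the same background pileup, 11 with lists of equal length and 19 with peaks of a −log10 q of at least 5. In dBRD9-A the counts under these 3 settings were 18, 7 and 26. Without the second SMARCB1 library with dBRD9-A, 40 were gained in dBRD9-A and 19 by the exact test over both treatments. Without the first or the third of that group, 29 and 31 were gained in dBRD9-A, and 13 each time by the exact test. Leaving out a library of a group loosens the rule within a treatment, which then rests on fewer libraries.

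Few block regions were lost with SMARCB1. In DMSO 4 block regions (0.803%, against 0.429% of all regions) were lost, and in dBRD9-A 2 were lost (0.385% of all regions), with 0 in common. The region nearest to a loss over both treatments was chr19:54416022-54416129, named after its values were seen. It had 10, 5 and 6 fragments in GFP with DMSO and 4, 7 and 15 in GFP with dBRD9-A, and of the SMARCB1 libraries only the third with dBRD9-A had a peak there, with 7. By the exact permutation test p was 0.02, and the Benjamini-Hochberg adjusted p of that test was 0.0757. Without that SMARCB1 library it was called lost, the 1 such region. The region chr19:56159242-56159430, also named after its values were seen, had 9, 10 and 8 fragments in GFP with DMSO, no peak in SMARCB1 with DMSO, and 12 and 8 fragments in the third library of GFP and of SMARCB1 with dBRD9-A. It was thus lost in DMSO and present in 1 library of each induction in dBRD9-A.

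At the 177 block regions open in every library, the rank was higher with SMARCB1 at about as many as it was lower. Rank is the percentile of the authors' fold among the 18114 regions present in all 12 lists, so that the same set was ranked in each library. Of the 177, 86 were higher with SMARCB1 and 91 lower, with a median difference of −0.309 points, against −2.42 on the rest of chromosome 19 and −1.10 over all such regions. By the exact permutation test with Benjamini-Hochberg adjustment 0 were higher and 0 lower, as were 0% of all regions in each direction, and the lowest adjusted p of a block region in that test was 0.0746. At an unadjusted p under 0.05 the exact test gave 18 higher and 17 lower (19.8%), against 19.7% of all regions in either direction. By limma on the same percentiles 8 were higher and 5 lower (7.34% of the 177), against 5.6% and 3.34% of all regions.

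**Figure D5:**
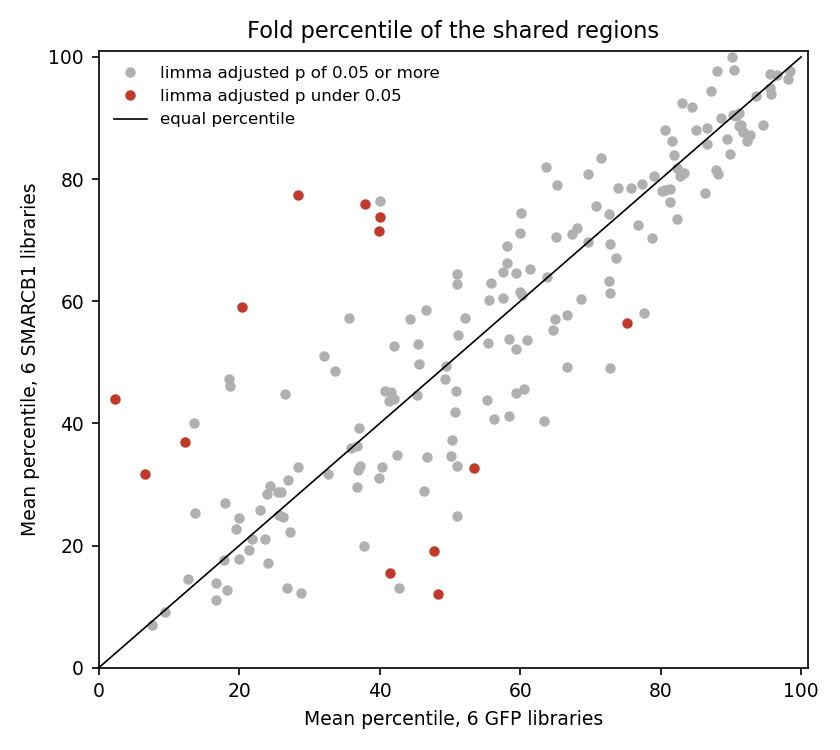
Mean percentile of the authors' fold in the 6 GFP libraries (horizontal axis) and the 6 SMARCB1 libraries (vertical axis) at the 177 block regions present in all 12 lists, ranked among 18114 such regions of the genome. Each point is a region, the line marks equal percentiles, and the 13 regions with a limma adjusted p under 0.05, 8 above and 5 below the line, are red.

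The largest positive difference in rank was at chr19:22034797-22035030 in the proximal block, from a mean percentile of 28.3 to 77.3, a difference of 49.0 (limma adjusted p = 0.000677). Its summit pileup was 17, 11 and 7 fragments in GFP with DMSO and 6, 10 and 10 in GFP with dBRD9-A, and 20, 20 and 25 and then 21, 20 and 29 in SMARCB1. The pileups of GFP and SMARCB1 libraries did not overlap. At chr19:53324849-53325112 in the distal block the mean percentile was 2.28 with GFP and 43.9 with SMARCB1, 41.6 higher (limma adjusted p = 0.000266). Its pileup was 8, 3 and 3 and then 3, 2 and 2 fragments with GFP, and 11, 15 and 11 and then 12, 12 and 14 with SMARCB1, again without overlap. At chr19:53868791-53869022 the mean percentile was 20.5 with GFP and 59.0 with SMARCB1, 38.6 higher (limma adjusted p = 0.00188), and the pileup was 6 to 9 fragments with GFP and 12 to 21 with SMARCB1.

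The most negative difference was at chr19:56904873-56905063 in the distal block, from a mean percentile of 48.4 to 12.1, a difference of −36.3 (limma adjusted p = 0.0213). Its pileup was 23, 12 and 12 fragments in GFP with DMSO, 14, 6 and 21 in GFP with dBRD9-A, 6, 8 and 3 in SMARCB1 with DMSO, and 8, 8 and 7 in SMARCB1 with dBRD9-A. The second GFP library with dBRD9-A, at 6, lay among the SMARCB1 libraries. At chr19:56592029-56592244 the mean percentile went from 47.7 to 19.1, a difference of −28.6 (limma adjusted p = 0.0441), and the pileup was 10 to 27 fragments with GFP and 7 to 12 with SMARCB1, which overlap. At chr19:54393042-54393458 it went from 42.7 to 13.1, a difference of −29.6, which did not pass (limma adjusted p = 0.0501).

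By position, in the proximal block 14 of the 21 regions present in all lists had a higher mean rank with SMARCB1, with a median difference of 4.61 points. Over all shared regions 8253 were higher and 9860 lower, and on the rest of chromosome 19 485 and 719. The stretches of the distal block are those whose limits were set after the positions of the gained regions were seen, so their counts are descriptions. In the distal block the first 1.5 Mb had 12 higher and 7 lower, with a median difference of 5.05. The next 3.5 Mb had 32 higher and 41 lower, with a median difference of −0.574, and from 57.0 Mb to the end there were 28 higher and 36 lower, with a median difference of −0.702. The 8 that passed limma as higher were 3 proximal and 5 distal, and the 5 that passed as lower were all distal. By level, regions of the blocks ranked above the middle of the shared set, at a median percentile of 56.8 against 51.0 on the rest of chromosome 19, with 68.0 in the proximal and 55.3 in the distal block.

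With dBRD9-A no block region passed the test. The dBRD9-A minus DMSO difference in block regions with a peak, by replicate number, was −49, 12 and 65 with GFP, and with SMARCB1 it was 41, −38 and 19, so that its sign changed between libraries and its means, 9.33 and 7.33, were smaller than the spread. By the exact permutation test of presence 0 block regions were called (0% of all tested regions in each direction), and at an unadjusted p under 0.05 the exact test also gave 0 gained and 0 lost, against 0.0475% and 0.017% of all tested regions. Fisher's exact test called 0 as well. For the rank at shared regions the exact test with Benjamini-Hochberg adjustment called 0 in each direction (0% of all regions), with a lowest adjusted p of 0.846, and at an unadjusted p under 0.05 it gave 3 higher and 2 lower (2.82%, against 4.84% of all regions).

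Within an induction, few block regions were in 3 of 3 libraries of one treatment and 0 of 3 of the other. In GFP cells 2 were gained with dBRD9-A (0.359% of all regions) and 0 lost (0.32%). In SMARCB1 cells 3 were gained (0.301%) and 1 lost (0.269%). With 3 libraries a group such a pattern has no p of its own here, and it was not set against other splits.

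The stronger of the regions gained in GFP cells was chr19:56151982-56152391. It had no peak in GFP with DMSO and 11, 9 and 11 fragments in GFP with dBRD9-A. In SMARCB1 cells it was present in 2 of 3 libraries with DMSO, at 7 and 12 fragments, and in all 3 with dBRD9-A, at 12, 10 and 13. The other, chr19:54015232-54015341, had 3, 5 and 9 fragments in GFP with dBRD9-A, and 3, 4 and 3 in SMARCB1 with DMSO. In SMARCB1 with dBRD9-A it had 2 and 4 fragments in 2 libraries and no peak in 1.

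The 3 regions gained in SMARCB1 cells had low summits. The region chr19:54451050-54451180 had 6, 5 and 5 fragments in SMARCB1 with dBRD9-A, chr19:57977214-57977349 had 4, 3 and 4, and chr19:58249820-58249944 had 5, 4 and 4. Each of them also had a peak in 2 of 3 GFP libraries with DMSO, at 3 to 6 fragments, so each was also seen without dBRD9-A.

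The region lost in SMARCB1 cells, chr19:56904601-56904703, had 3, 4 and 3 fragments in SMARCB1 with DMSO and no peak in SMARCB1 with dBRD9-A. In GFP cells it had 9, 6 and 4 fragments with DMSO and 4, 4 and 5 with dBRD9-A. It was therefore also 1 of the 2 regions lost with SMARCB1 in dBRD9-A, and it lay 169 bp from chr19:56904873-56905063, the shared region with the most negative difference in rank with SMARCB1.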

How the data were processed

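ATAC-seq peak lists of 12 G401 libraries were analysed. Per the labels, they come from nucleosome-free fragments of a commercial kit; the submitters' processing notes name BWA 0.7.12-r1039, SAMtools 1.2, bedtools 2.24.0, MACS2 2.1.1.20160309, DiffBind and DESeq2, and hg19. What the filter in the list names did is not given in the sources used here. The deposited lists give a score (not used), the fold over background (a ratio) and −log10 p and −log10 q as the authors' peak caller wrote them. Peaks were called per library. Coordinates are 1-based.

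Peaks were merged at 1 bp. Presence was tested by two-sided exact permutation within treatment (400 arrangements), adjusted by Benjamini-Hochberg over all tested regions; rank was tested alike and with limma 3.58.1 (R 4.3.3). Pileups were solved from fold and p, and at least 99.99% came out whole within 0.001. Python 3.11.15, numpy 2.4.6, pandas 2.3.3, scipy 1.17.1 and matplotlib 3.10.9 were used, and the tests were checked on simulated data. Intervals for depth were not computed, as read totals were not used.

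The members, lists and rules were chosen with earlier results of these data known. Named regions were those called lost; per block, the 5 strongest gained and 3 strongest in all 12 lists; the 3 largest rank changes each way; up to 3 gained and lost with dBRD9-A per induction; and those at the block edges. Others are marked. No rank change passed the exact test, so the rank changes named are the 3 largest each way without that call. Genes, sequences and motifs of the regions are not analysed here. Replicate numbers were not taken as pairs, as the labels do not say that they mark a batch (library numbers in the titles run in sequence within each). Over both treatments 2 of 18 same-number correlations of deviations exceeded 0.1 (median 0.0126, range −0.0614 to 0.252). Between different numbers 0 of 36 did (median −0.00681, highest 0.0865). Of the 12 libraries, 9 correlated best with one of their own number. Whether a number marks a batch was not tested.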

Additional observations from a re-analysis of the deposited data

How the results depend on the processing

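Other settings were lists of equal length, a −log10 q of at least 5, summit windows, presence by 50% cover, 1 random thinning to the same background pileup, Fisher's exact test, limma, ranking by −log10 p, the replicate block and leaving out each library. Against 12 gained regions, 6 were called with lists of equal length, and 0 at the same background pileup or by 50% cover. The 0 lost became 5 with lists of equal length. The difference of 68.7 block regions with a peak was −38.7 with lists of equal length and 22.2 at the same background pileup, and the share difference of −0.751 points was 0.393 with lists of equal length; the cause was not tested. By limma 8 shared regions were higher and 5 lower in rank, against 0 and 0 by the exact test. The count of 12 gained was also 12 by Fisher's exact test and with summit windows, and were 13 at a −log10 q of at least 5.

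With the replicate block, which exchanges labels only within a replicate number, 0 regions were called gained: 12 had the smallest p the block allows, 0.03125 by exact permutation, and the lowest Benjamini-Hochberg adjusted p was 0.201. The labels do not say what a replicate number stands for, though the library numbers in the titles run in sequence within each. In the data, 9 of 12 libraries correlated best with one of their own number. Of the same-number correlations 2 of 18 exceeded 0.1, against 0 of 36 between different numbers.

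Leaving out 1 library at a time gave 12 to 19 gained (19 without SMARCB1 dBRD9-A replicate 2), 0 to 1 lost (1 without SMARCB1 dBRD9-A replicate 3), a difference of 60.75 to 80.75 block regions and of −0.821 to −0.657 points, 0 to 0 changed with dBRD9-A, and 0 to 0 of higher or lower rank. The 3-of-3 counts were tried under the list settings after seeing the data: 32 to 46 in DMSO and 22 to 40 in dBRD9-A with a library left out. A library left out of a compared group loosens that rule, which then rests on fewer libraries. Depth limits weak regions, since a summit of 2 or 3 fragments can pass in one list and be missed in a shallower one.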
